A study of Papio anubis and Macaca fascicularis and Castor canadensis with 48 samples.

Results

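Brain and kidney of the olive baboon (Papio anubis) were compared by bulk RNA sequencing, with 6 brain libraries and 6 kidney libraries. These are 12 of the 48 libraries of a series on longevity across mammals, and they were chosen by their organ and species labels alone. Per the labels, every baboon was a male, wild-type young adult sampled at a primate research center, and no treatment is given. The labels name neither the region of the brain nor the part of the kidney that was taken, and they do not say whether the libraries with the same number came from the same animal or whether the libraries of an organ came from separate animals. P-values therefore measure the spread between these libraries, which may be technical. Baboon liver (6 libraries) shared the fit and lent its estimate of the spread. Cerebellum (6 libraries) and kidney (5 libraries) of the long-tailed macaque (Macaca fascicularis), male, wild-type young adults of the same collection, served as the nearest counterpart. In bulk tissue, fewer cells of a type and less RNA per cell cannot be told apart.

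The brain is built from neurons, which signal by electrical impulses and by transmitter release at synapses, and from glia: astrocytes, myelin-forming oligodendrocytes and microglia. The kidney is built from nephrons. In each of these a glomerulus filters the blood, and a chain of tubule epithelia recovers water, salts, glucose, amino acids and filtered protein under hormonal control. This is background on the organs. The rows of the count table are mouse Ensembl gene IDs, no gene symbol stands beside them, and the baboon gene table used here holds no Ensembl IDs, so none of the 16816 IDs could be looked up. Neural and renal functions were therefore not assigned to any gene, the organ labels were not checked against marker genes, and at most 2 IDs that were higher and 2 that were lower are printed for a comparison. Without names, genes that share reads with a near-identical copy or an overlapping neighbour could not be told from the rest.

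The brain libraries held 14335439 to 16153874 counts and the kidney libraries 15802387 to 18679932. All 6 brains had more genes at 1 CPM (a count scaled to its library's total) or more than any kidney, 12782 ± 54.1 in brain and 12436 ± 130 in kidney (SD, n = 6 each; exact permutation p = 0.00216, the smallest that these 12 libraries allow, adjusted p = 0.00325 over 3 library measures). The 10 most counted genes held 6.86% to 11.6% of a brain library and 12.5% to 16.97% of a kidney library (exact permutation p = 0.00216, adjusted p = 0.00325). The Spearman correlation across 13890 genes was 0.965 to 0.989 between brain libraries, 0.972 to 0.986 between kidney libraries and 0.515 to 0.569 between a brain and a kidney. Genes are not independent replicates, and these correlations carry no test.

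The IDs with the widest fitted difference among genes of at least 20 CPM in the higher organ were at or near 0 in 1 organ and well counted in every library of the other. ENSMUSG00000007944 had 128 CPM in the lowest brain, a median of 149.7 CPM and 177.5 CPM in the highest brain, and no count in any of the 6 kidneys. ENSMUSG00000041708 ranged from 102 to 163 CPM in brain with a median of 143 CPM, and again no kidney library had a count. The brain and kidney libraries did not overlap for either ID. Against a floor of 3 read pairs (6 counts) over the whole kidney group, brain exceeded kidney at least 2601-fold for ENSMUSG00000007944 (edgeR quasi-likelihood test, Benjamini-Hochberg adjusted p = 9.82e-13). For ENSMUSG00000041708 the same bound was at least 2365-fold (edgeR, adjusted p = 6.7e-05). Both p-values come from the fit that holds liver. With the brain and kidney libraries only, the edgeR adjusted p was 1.7e-10 for ENSMUSG00000007944 and 8.03e-10 for ENSMUSG00000041708.

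On the other side, ENSMUSG00000050520 had no count in the 6 brains, and 98.4 CPM in the lowest, 159 CPM in the median and 185.8 CPM in the highest kidney. Brain thus fell short of kidney at least 2403-fold, with an adjusted p of 1.3e-12 from edgeR. ENSMUSG00000023013 had 2 counts over the 6 brains, both in replicate 6, and 144 to 705 CPM in kidney with a median of 263.9 CPM. Its kidney libraries were the least even of the 4 IDs, since replicate 3 stood at 705.1 CPM and the other 5 kidneys lay between 144 and 315 CPM. Taking its 2 counts as 1 read pair, ENSMUSG00000023013 was higher in kidney than in brain by a ratio of 14996, with an exact Poisson 95% interval of 2692 to 592325 that covers counting error only (edgeR adjusted p = 2.59e-12).

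**Figure D1:**
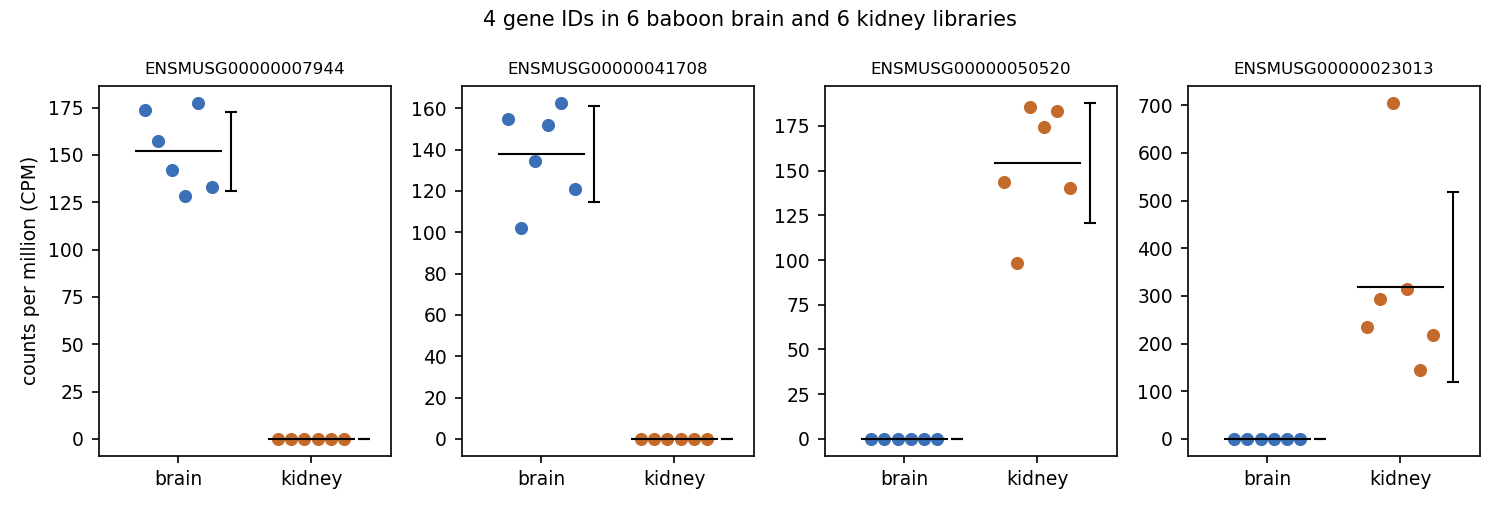
Each panel plots 1 gene ID in CPM on a linear axis, with the 6 baboon brain libraries left of the 6 kidney libraries; points are libraries, lines are means and bars are ± 1 SD. Both IDs on the left lie between 102 and 177.5 CPM in every brain and at 0 in every kidney, and both on the right are at or near 0 in every brain.

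The same 4 IDs were then read in libraries outside the contrast that chose them. ENSMUSG00000007944 had 87.1 to 97.6 CPM in macaque cerebellum, and 2 counts in 1 of the 5 macaque kidneys. It had 417 CPM ± 89.1 in beaver brain (SD, n = 2) and 1080 CPM in the single white-footed mouse brain, and no count in the single bear kidney. It was thus counted in every brain or cerebellum library of 4 species. ENSMUSG00000041708 was less even: 3.02 to 9.80 CPM in macaque cerebellum, 273 CPM ± 55.8 in beaver brain (n = 2) and 15.2 CPM in white-footed mouse brain. It was absent from all 5 macaque kidneys, yet 2 of the 6 baboon livers held all 653 of its counts in that organ, with up to 18.7 CPM. ENSMUSG00000050520 had 59.7, 61.3, 78.2, 84.2 and 95.6 CPM in the 5 macaque kidneys, and 22.4 CPM in bear kidney. It had 2 counts over the 6 macaque cerebella and 2 counts over the 6 baboon livers, and it had no count in beaver brain, beaver liver or white-footed mouse brain. ENSMUSG00000023013 had 110 to 385 CPM in macaque kidney and 10.3 CPM in bear kidney, and 4 counts over the 6 macaque cerebella, in 2 of them. Levels between species can hold a difference in how reads were assigned to mouse gene IDs as well as in expression, and these were not separated.

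Across the table, most genes differed between the organs. At an adjusted p under 0.05, 10739 of 13890 genes tested were called (77.3%), 5303 higher in brain (38.2%) and 5436 lower (39.1%). A count of called genes says little by itself at this replicate number, because 1874 of them had a fitted fold change under 1.5. The fold classes say more. At least 2-fold separated 3430 genes higher and 3389 lower in brain, and at least 4-fold 2192 higher (15.8% of those tested) and 1834 lower (13.2%). These are fitted values, and they include 72 genes with no count in kidney and 62 with none in brain, whose size depends on the prior count. At least 16-fold separated 1164 higher and 723 lower, and at least 256-fold 328 higher and 206 lower. Both directions were close in number at 2-fold, and brain had the larger number in each class from 4-fold up to 1024-fold, where 121 genes were higher and 100 lower. A test against a fold of at most 2 (edgeR glmTreat, chosen after the data were seen) called 5660 genes, 2910 higher and 2750 lower in brain.

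**Figure D2:**
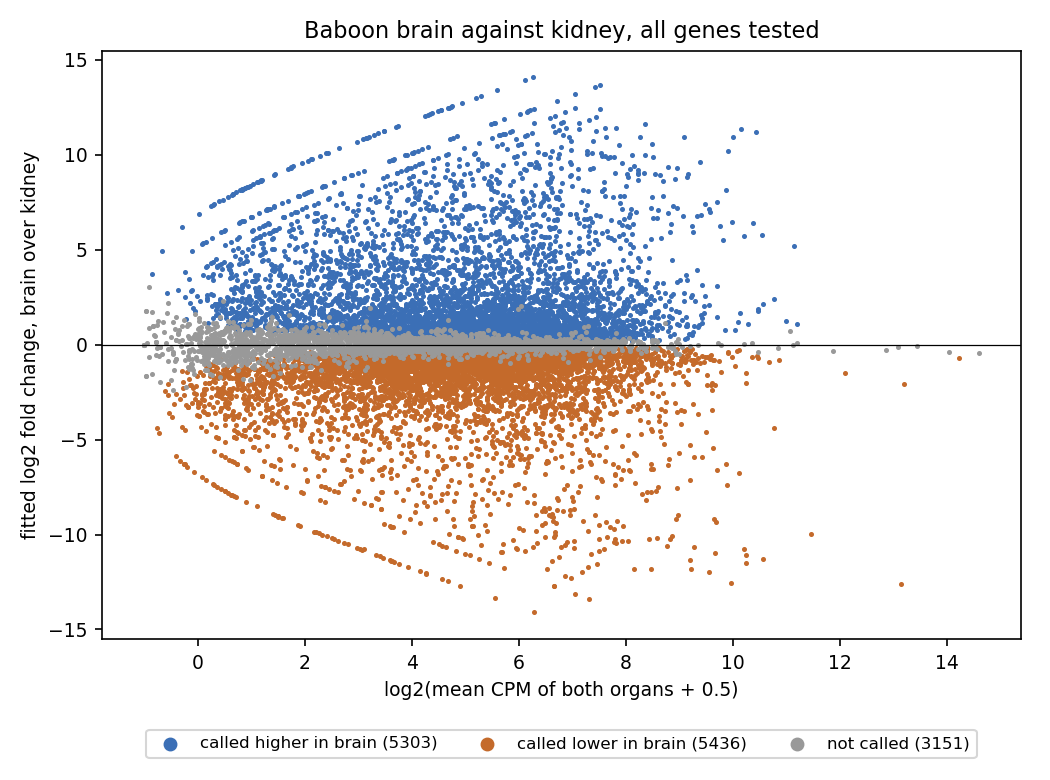
Each point is 1 of 13890 genes tested; the horizontal axis is log2 of the mean CPM of both organs plus 0.5 and the vertical axis is the fitted log2 fold change of brain over kidney. Genes called higher in brain (5303) and lower in brain (5436) spread to similar distances either side of 0, and the curved rows at the outer edges are genes with no or few counts in 1 organ, whose fitted values are set by the model's prior count.

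How often a gene was called moved with its level. Of 502 genes tested with a mean under 1 CPM over both organs, 48.8% were called, and of 2309 genes over 100 CPM, 86.2% were. The share called with at least 4-fold did not follow that order: it was 36.3% under 1 CPM, 36.8% from 1 to 10 CPM, 24.3% from 10 to 100 CPM and 33.9% above 100 CPM. Genes under 1 CPM were tested only if they passed the filter on low counts, which they can do through 1 organ or through liver. Their 36.3% therefore depends on that filter and does not describe all genes at this level. The median standard error of the log2 fold change was 0.62 in the lowest of these classes and 0.13 in the highest, so small differences of rarely counted genes were not detectable at this depth. Without reference to the test, the 6 brains and 6 kidneys did not overlap in CPM for 8579 of the 13890 genes (61.8%).

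Part of the table was alike in both organs. For 2212 genes the 95% interval of the fold change, not adjusted for the number of genes, lay within 1.5-fold either way, and for 4819 it lay within 2-fold. Another measure of what is shared is the most counted genes, which are ranked here by counts and not per length. Of the 10 most counted genes in each organ, 7 were the same. Of the 10 in brain, 2 were called higher and 2 lower in brain. Of the 10 in kidney, 5 were called lower and 0 higher in brain, so a shared place in the list is not an equal level. Of the 100 most counted, 29 were the same (29% of each list). Of the 100 most counted in brain, 72 were called higher and 13 lower in brain, where 38.2% and 39.1% of all genes tested were. Of the 100 most counted in kidney, 84 were called lower and 2 higher in brain. Both lists were picked for high counts in the libraries that the call compares, so a lean towards their own organ is built in and these counts are a description.

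The genes called with at least 4-fold in 1 direction held a large part of that organ's counts. The 2192 genes higher in brain took 30.0% ± 1.36 of the counts in brain and 2.11% ± 0.177 in kidney (SD, n = 6 each). The 1834 genes lower in brain took 2.21% ± 0.255 of the counts in brain and 27.5% ± 1.41 in kidney. These sets were chosen by the same contrast, so the shares describe their weight in the libraries and are no test. The 3151 genes that were not called took 20.4% ± 1.37 in brain and 21.6% ± 0.858 in kidney.

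Some genes were counted in 1 organ and not at all in the other. Of the 16816 genes in the table, 12666 had a count in all 12 libraries and 1145 had none in any of them. A count in at least 1 brain and none in any kidney was found for 469 genes, and in at least 1 kidney and none in any brain for 323. Of these, 123 had a count in all 6 brains and 83 in all 6 kidneys, and these 2 lists are described here. Most were weakly expressed: the median of their mean levels was 2.14 CPM for the 123 genes in brain and 2.94 CPM for the 83 genes in kidney, and 21 and 16 of them reached 20 CPM in their organ. The filter on low counts passed 72 of the 123 and 62 of the 83. No count in 6 libraries allows up to 6 counts (3 read pairs) over that organ, so absence here is a statement about these depths. Allowing up to 2 counts over the other organ, as from a single read pair, raised the numbers to 232 for brain and 154 for kidney.

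In libraries that did not choose them, more genes of each list were seen in the same organ, or in cerebellum, than in the other. Outside baboon, only macaque had libraries of kidney and of brain or cerebellum. The beaver brain shares rest on 2 libraries, and those of white-footed mouse brain and bear kidney on 1 each. In these species organ and species cannot be told apart. Of the 123 genes of all 6 brains and no kidney, 53 (43.1%) had a mean of 1 CPM or more in macaque cerebellum and 2 (1.63%) in macaque kidney. Over all 16816 genes the shares were 74.9% in macaque cerebellum and 73.7% in macaque kidney. The 123 genes reached 1 CPM in 64 cases (52.0%) in beaver brain, 53 (43.1%) in white-footed mouse brain, 3 (2.44%) in bear kidney and 3 (2.44%) in baboon liver. Over all genes the shares in these groups were, in the same order, 75.9%, 68.1%, 63.4% and 65.6%. Liver, which took no part in the choice, thus held few of them.

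Of the 83 genes of all 6 kidneys and no brain, 0 reached a mean of 1 CPM in macaque cerebellum, which was listed with no count at all for 34 of them, and 52 (62.7%) did in macaque kidney. They reached 1 CPM in 35 cases (42.2%) in bear kidney, 9 (10.8%) in beaver brain and 5 (6.02%) in white-footed mouse brain. All genes of the table did so at 63.4%, 75.9% and 68.1% in the same order. More of them than of the brain genes were also seen in liver: 17 of 83 (20.5%) had 1 CPM or more in baboon liver and 15 (18.1%) in macaque liver. Both shares were below the 65.6% of all genes in either liver. That difference between the lists was not tested. Calls of these genes between the macaque organs were computed but are not used here, since genes near 0 in 1 organ pass a filter on low counts only through the other.

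**Figure D3:**
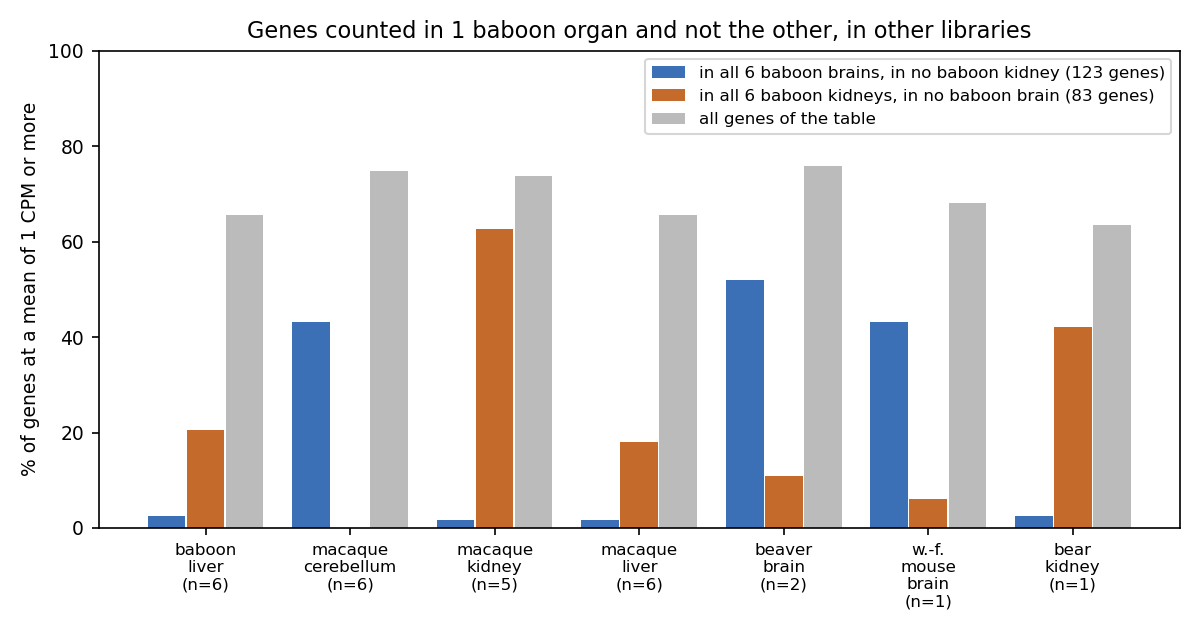
Bars give the percentage of genes with a mean of 1 CPM or more in 7 groups of libraries, for the 123 genes counted in all 6 baboon brains and no baboon kidney, the 83 counted in all 6 baboon kidneys and no baboon brain, and all genes of the table. The brain genes stand at 43.1% to 52.0% in brain or cerebellum of the other species. They stand at 1.63% to 2.44% in the kidneys of other species and in the primate livers shown. The kidney genes stand at 62.7% in macaque and 42.2% in bear kidney. All genes stand at 63.4% to 75.9%, above both lists in every group. Beaver brain is 2 libraries, and white-footed mouse brain and bear kidney are 1 each.

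Within an organ the libraries were about equally alike. Among genes with a mean of at least 10 CPM, the median SD of log2 (TMM-scaled CPM + 0.5) over 6 libraries was 0.20 in brain (9617 genes) and 0.19 in kidney (9425 genes), and the 90th percentile was 0.44 in brain and 0.45 in kidney. A range of at least 4-fold among the 6 libraries was found for 186 genes in brain (1.93%) and 217 in kidney (2.30%), and 19 genes had such a range in both. In brain these genes gathered on 1 library. Replicate 2 lay farthest from the median for 98 of the 186 (52.7%), and the other 5 brains did so for 1 to 31 each. Without brain replicate 2 the number of such genes was 84. In kidney the library farthest from the median was replicate 5 for 62 genes (28.6%) and replicate 2 for 52 (24.0%). Replicate 2 also had the lowest median correlation with the other brains, 0.967, against 0.978 to 0.985 for the remaining 5. Without it, 10710 genes were called between the organs. Of the variable genes, 78.0% in brain and 78.8% in kidney were called between the organs, where 77.3% of all genes tested were. The variable genes had a mean of at least 10 CPM in their organ, and the genes tested did not need it. By the mean of both organs, 78.6% of genes from 10 to 100 CPM and 86.2% over 100 CPM were called.

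Macaque gave the nearest counterpart, with cerebellum in place of brain, so that species and brain region cannot be told apart. The 2 contrasts share no library. Fitted together, the log2 fold changes of 14225 genes correlated with r = 0.847 (rho = 0.804) across genes, which are not independent replicates and carry no test. This fit called 5654 genes higher in baboon brain than in baboon kidney (39.7% of those tested) and 5696 lower (40%). Of the 5654, 79.7% were also called higher in macaque cerebellum than in macaque kidney, where 42.4% of all genes were, and 5.73% were called lower. Of the 5696, 75.8% were called lower in macaque cerebellum, where 37.7% of all genes were, and 8.58% were called higher. A test of the difference between the contrasts called 6751 of 14225 genes (47.5%), 1619 of them with at least a 4-fold difference (11.4%). For 4695 of the 6751 both species had the same sign. In 5002 of the 6751 the brain and cerebellum libraries were farther apart between the species than the kidney libraries were, and in 1749 the reverse held. Over all genes tested, the median absolute log2 fold change was 0.55 between baboon brain and macaque cerebellum and 0.30 between baboon and macaque kidney.

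**Figure D4:**
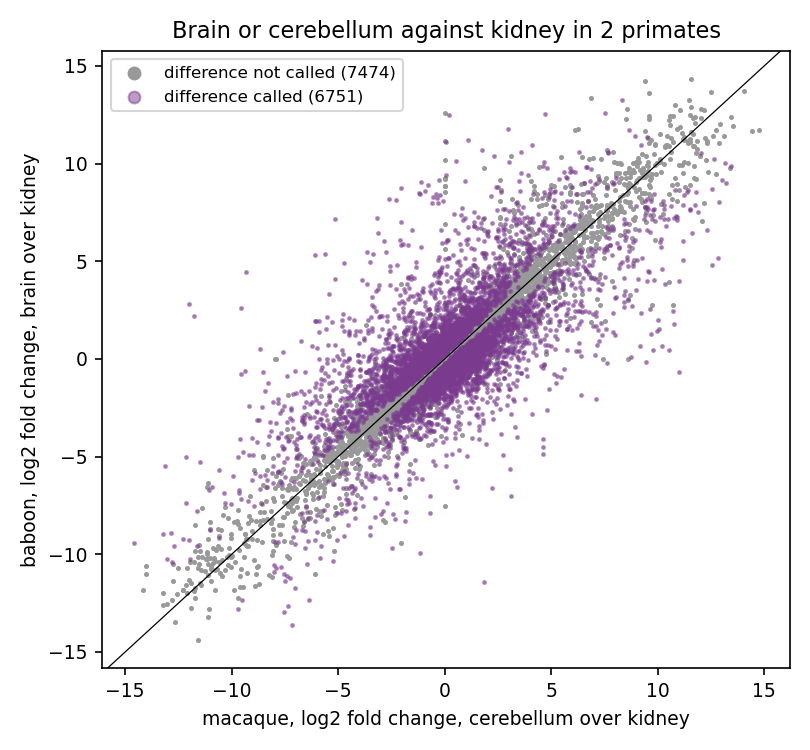
Each point is 1 of 14225 genes; the horizontal axis is the log2 fold change of cerebellum over kidney in macaque and the vertical axis that of brain over kidney in baboon, with the line of equal change. Points follow the line (r = 0.847), and genes whose difference was called (6751) lie on both sides of it.

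Among the genes that parted most between the contrasts, ENSMUSG00000058624 turned round. It had 41.5 to 172.8 CPM in baboon brain with a median of 103.7 CPM, and 13.3 to 27.1 CPM in baboon kidney with a median of 21.8 CPM. In macaque it had no count in 5 of 6 cerebella and 2 counts in replicate 6, and 46.8, 52.2, 86.7, 107.5 and 129 CPM in kidney. The difference was called (edgeR adjusted p = 1.68e-12). ENSMUSG00000041261 had 7.53 to 11.2 CPM in baboon brain and 3.10 to 12.03 CPM in baboon kidney, which overlapped and did not pass the test (log2 fold change 0.44 ± 0.33 SE, edgeR adjusted p = 0.232). In macaque it had 238 to 302 CPM in cerebellum and 0.112 to 0.215 CPM in kidney, and the difference of the log2 changes, baboon minus macaque, was -10.07 ± 0.44 (SE, edgeR adjusted p = 1.12e-13).

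For the other two IDs the call rested on very few baboon or macaque counts. ENSMUSG00000059412 had 30 counts in baboon brain replicate 5 and none in the other 5 brains, and 4 counts in baboon kidney replicate 5 and none in the other 5 kidneys. In macaque it had 419 to 517 CPM in kidney and 12 counts over the 6 cerebella, in 3 of them. Whether reads of baboon and macaque were assigned to this ID alike was not tested. The fitted difference was called (edgeR adjusted p = 4.22e-07), and without baboon brain replicate 5 it was not (adjusted p = 0.994), so 1 library decided it. ENSMUSG00000056959 had no count in baboon brain, 3.00, 3.66, 5.44, 28.5, 37.0 and 43.8 CPM in the 6 baboon kidneys, no count in macaque kidney and 2 counts in macaque cerebellum replicate 6. Its kidney libraries split into 3 low and 3 high values. Its difference was called narrowly (edgeR adjusted p = 0.0412), and without macaque cerebellum replicate 6, 1, 3 or 5 the adjusted p was 1, 0.0511, 0.0511 or 0.0502.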

How the data were processed

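The authors deposited raw read counts per gene, 1 column per library, with no normalization; STAR and featureCounts are named in the submitters' processing notes. Versions, genome builds, annotation, strand setting and the way reads of 8 species were given mouse gene IDs were not given in the sources used here. All columns matched a sample by name. Low counts (1 to 20) were even in 98.5% to 99.1% of cases in the 12 libraries, so 2 counts were taken as 1 read pair. Counts were tested with edgeR 4.0.16 in R 4.3.3 (TMM factors, filterByExpr defaults, two-sided quasi-likelihood F test, Benjamini-Hochberg over all genes tested, called under 0.05). Brain against kidney used 18 baboon libraries. The difference between the baboon and macaque contrasts used 23 baboon and macaque libraries. The SE comes from the F statistic. DESeq2 1.42.0 was an alternative. Single library measures used exact permutation. Printed IDs are the first 2 per direction by absolute log2 fold change among called genes with a mean of at least 20 CPM in the higher organ (any of the 4 groups for the difference) and, for brain against kidney, no overlap between the organs. That rule asked for a gene name, a demand dropped here. The 45 gene lists and 18 families written as symbols could not be matched to IDs and gave no result. Groups and lists were chosen with earlier results of these data known.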

Additional observations from a re-analysis of the deposited data

Results flagged for a closer look

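In 33 sets of values looked at, each over a group of 4 to 10 libraries, 4 held 1 value far from the rest. For independent sets chance gives about 1 in 20. These sets share libraries and some hold IDs chosen for wide differences, so that rate does not apply and no excess over chance is read from them. ENSMUSG00000023013 had 705.1 CPM in baboon kidney replicate 3, and the next kidney 315 CPM. ENSMUSG00000041261 had 238.3 CPM in macaque cerebellum replicate 2, below the other 5 cerebella. ENSMUSG00000041708 had 9.795 CPM in macaque cerebellum replicate 1, above the other 5 cerebella. Baboon brain replicate 2 was the library farthest from the median for 98 of the 186 variable genes in brain. Between baboon and macaque, 6751 genes differed in their brain or cerebellum against kidney change by the test of that difference. Species and brain region cannot be told apart in it. The part of RNA quality, dissection or animal in these values was not tested.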

How the results depend on the processing

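Of 80 recomputed values that left out no library, 75 kept their direction and call, or stayed within 1.5 times for a count. Brain against kidney called 10851 genes with the 12 libraries alone, 11323 by DESeq2 and 10545 with halved counts. Upper-quartile factors called 4939 higher and 5788 lower in brain and RLE factors 5601 higher and 5134 lower, so which direction held more genes depended on the scaling. The change of brain or cerebellum against kidney was higher in baboon for 3203 genes and in macaque for 3548, where species and brain region cannot be told apart. This balance turned round in other fits. It was 3972 and 3224 by DESeq2, 3081 and 2632 with both livers added and 3368 and 3345 with no filter. Without baboon brain replicate 4 it was 3647 and 2904, without baboon kidney replicate 1 3707 and 2934, and without baboon kidney replicate 6 3645 and 2908. It also turned without macaque kidney replicate 2 (3336 and 3227) or 3 (3222 and 3218). 4 of the exceptions follow from their construction: 6819 genes with at least 2-fold, 5660 by glmTreat, and 232 and 154 genes counted in 1 organ when 2 counts in the other were allowed. The fit with the replicate number as a block called 10897 genes. The deviations of same-numbered brain and kidney correlated with r = 0.0514 to 0.111 (over 0.1 in 3 of 6 pairs). For brain and kidney of unlike number r was -0.153 to 0.0836. Of the brains 5 of 6, and of the kidneys 6 of 6, correlated best with their own number. The labels give no pairing, so the main tests did not use the number. Whether it marks the same animal was not tested. The mean total count, brain minus kidney, was -1723666 (exact permutation, adjusted p = 0.013). By exact sign flips within numbers, added after the data were seen, its adjusted p was 0.0938, with brain lower in 5 of 6 pairs. The other two library measures kept an adjusted p of 0.0469 by these flips, with 6 of 6 pairs one way. Leaving out 1 library gave 10502 to 10710 called genes, and 6440 to 6723 for the difference between the baboon and macaque contrasts. It gave 84 to 184 variable genes in brain, where replicate 2 gave the lowest, and the cause was not tested. The list and family counts were not run, since no ID had a name.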
